A study of Homo sapiens with 6 samples.

Results

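Integrins, the receptors with which cells hold on to the matrix around them, and laminins, the chains of the sheet-like matrix that many integrins bind, were followed in A375 melanoma cells sorted by aldehyde dehydrogenase (ALDH) activity. The set holds the protein-coding genes whose name begins with ITGA or ITGB, or is LAMA, LAMB or LAMC followed only by digits. These were 42 of the 57914 genes in the deposited tables: 26 integrin subunits, 12 laminin chains, and 4 genes named after integrins that encode no subunit (ITGB1BP1, ITGB1BP2, ITGB3BP and ITGBL1). A375 is an established human melanoma cell line, and all libraries come from it. The cells were stained with Aldefluor, a substrate that turns fluorescent when ALDH enzymes act on it, and the 5% with the strongest signal (ALDH_High) and the 5% with the weakest (ALDH_Low) were collected by flow cytometry. Each group has 3 libraries, numbered 1 to 3, with no drug or gene change in either group according to the labels. Nothing in the labels says whether the 3 libraries of a group came from separate cultures, so p-values measure only the spread between these libraries, which may be technical. A sorted tail is a mixture of cells, and fewer cells carrying a transcript cannot be told apart from less transcript per cell.

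As background, an integrin is a pair of 1 alpha and 1 beta subunit that spans the membrane, grips matrix outside and links to actin or keratin filaments inside. The alpha subunit largely sets the ligand: some pairs prefer laminins, some collagens, and some the RGD motif of fibronectin, vitronectin and latent TGF-beta. A laminin is a trimer of 1 alpha, 1 beta and 1 gamma chain that polymerises into basement membranes, and its alpha chain carries the main integrin-binding end. In skin, the basement membrane separates melanocytes and keratinocytes from the dermis, and the integrin of ITGA6 and ITGB4 anchors the epidermis to it. ITGB3, the partner of ITGAV, is a classical melanoma integrin.

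Library totals lay between 26692868 and 37830603 counts. ALDH1A3, the dehydrogenase named in the study's title, was listed at 279, 519 and 504 TPM (a transcript level scaled to gene length and to a fixed library sum) in ALDH_High libraries 1, 2 and 3 and at 149.5, 182 and 165 TPM in ALDH_Low, so the libraries separated on it as labelled. ALDH_High library 1 was nearest to ALDH_Low for ALDH1A3. Of the 8 melanocyte lineage markers, SOX10 (log2 change 1.79, edgeR adjusted p 3.14e-05) and S100B (4.28, edgeR adjusted p 9.03e-05) were higher and MITF was lower (-0.92, edgeR adjusted p 0.00667) in ALDH_High, while MLANA and TYR, pigment genes, had at most 3 counts in any library. The summed CPM (counts scaled to a common library total) of the 8 was 641 to 817 in ALDH_High and 212 to 231 in ALDH_Low, most of it SOX10, and their part in the results was not tested. Chi-square statistics per degree of freedom were 45.6 and 56.1 for ALDH_High library 1 against libraries 2 and 3, 13.5 between the latter, and 22.6 to 28.8 within ALDH_Low, so no pair agreed to within sampling noise. ALDH_High library 1 stood apart from its group: without it 4221 genes passed the edgeR test in place of 3513, and 11 members were higher and 12 lower in place of 10 and 9.

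In ALDH_High cells the integrin and laminin repertoire differed from that of ALDH_Low cells in both directions. LAMA4, LAMC3, ITGB3, ITGB8, ITGA9, ITGA10, ITGA4, ITGA7, ITGAV and ITGA6 were higher, and the lower genes included LAMA1, LAMA3, LAMA5, LAMB3, ITGB4, ITGB7, ITGA2 and ITGA3. In all, 10 members were higher and 9 lower, 54.3% of the 35 members with enough counts to be tested. Over all 17047 genes tested, 20.6% passed the threshold, 10.8% higher and 9.83% lower (edgeR quasi-likelihood test, Benjamini-Hochberg adjusted p below 0.05, all comparisons two-sided). The median log2 fold change was 0.17 for the tested members and -0.01 for all genes tested, and the median size without its sign was 0.86 against 0.28.

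Groups did not overlap in normalised counts for 24 of the 35 tested members, where 37.8% of all genes tested had groups that did not overlap, and all 19 members past the threshold were among the 24. That holds for nearly every called gene: of all 3513 genes past the threshold, only 16 had groups that overlapped. LAMC3 and ITGA9 reached the count minimum in every ALDH_High library but not in every ALDH_Low library. Their entry into the test thus rested on ALDH_High, which favours a difference. Of the 31 members that reached the count minimum in every library, 8 were higher and 9 lower; of all 14753 genes that did so, 19.4% were called, 10.4% higher and 8.92% lower. The 7 members that were not tested were ITGA2B, ITGA8, ITGAD, ITGAL, ITGAM, ITGB6 and ITGBL1, with at most 13 counts in any library. All but ITGBL1 are integrin subunits, most of them known from blood cells.

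**Figure D1:**
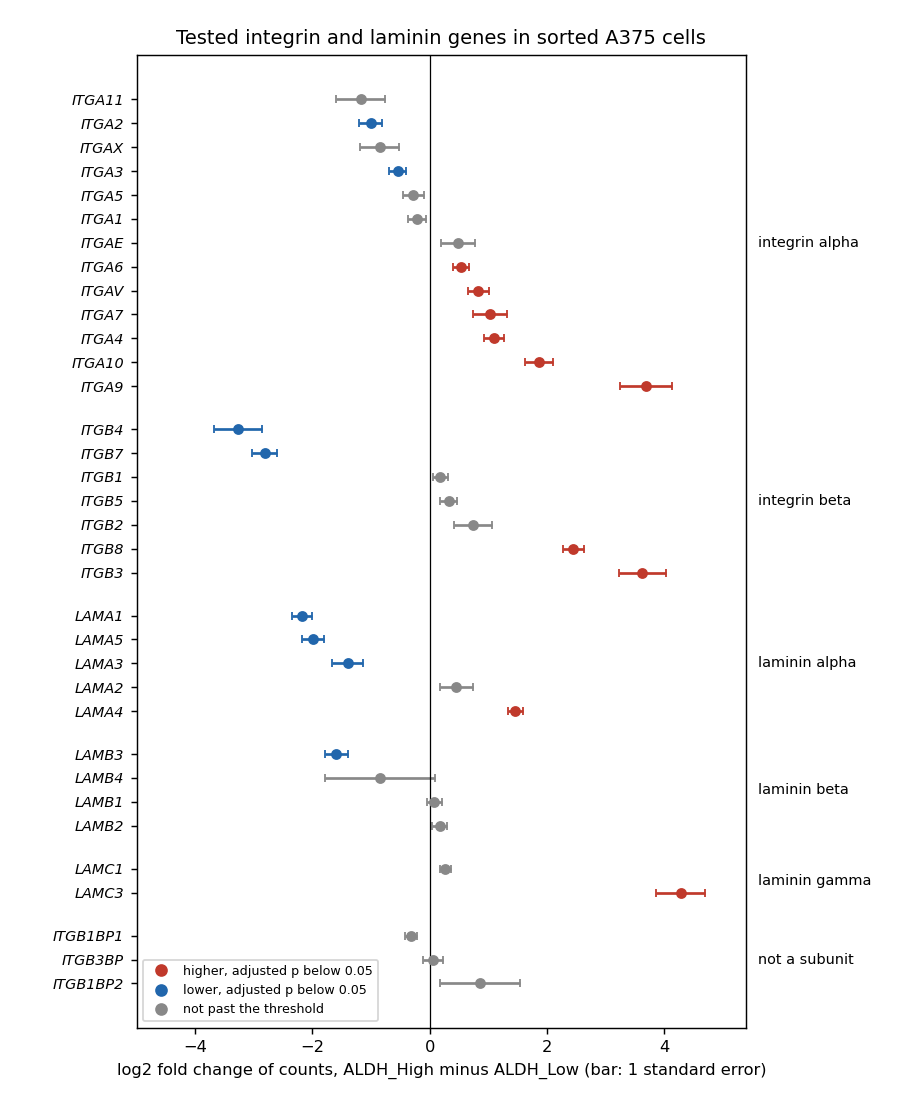
Log2 fold change of counts (ALDH_High minus ALDH_Low, horizontal axis) for 34 of the 35 tested members, ordered by class, with bars of 1 standard error from the edgeR fit on 3 libraries per group. Red points passed the threshold as higher (10) and blue points as lower (8), from LAMC3 at 4.28 to ITGB4 at -3.27; the 16 grey points did not pass.

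Between the groups, the 2 leading laminin alpha chains changed places. LAMA4 (chr6:112107931-112254939, positions on GRCh38 from GENCODE 44 throughout), the alpha chain of laminins around vessels, fat and muscle, was listed at 102, 115 and 105 TPM in ALDH_High libraries 1, 2 and 3 and at 40.6, 33.1 and 38.8 TPM in the ALDH_Low libraries. Every ALDH_High library was above every ALDH_Low library, with means of 107 ± 6.85 TPM in ALDH_High and 37.5 ± 3.91 TPM in ALDH_Low (SD, n = 3; log2 change 1.46 with SE 0.12, adjusted p 3.29e-05 by edgeR). LAMA5 (chr20:62307955-62367312), the broadly expressed alpha chain of adult epithelial basement membranes, went the other way. It had 32.9, 24.0 and 25.6 TPM in ALDH_High and 134, 97.6 and 88.6 TPM in ALDH_Low (log2 change -1.99 with SE 0.19, adjusted p 8.22e-05 by edgeR). LAMA5 averaged 107 TPM where LAMA4 averaged 37.5, and 27.5 TPM where LAMA4 averaged 107. Endothelial and fibroblast markers, whose cell types also make LAMA4, summed over 8 genes to 15.4 to 18.3 CPM in ALDH_High and 17.8 to 20.04 CPM in ALDH_Low, and their part was not tested.

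Set against all alpha chain RNA, LAMA4 made up 73.9%, 80.5% and 77.8% of the summed alpha chain TPM in the ALDH_High libraries and 22.0%, 24.0% and 28.6% in the ALDH_Low libraries. LAMA5 made up 23.9%, 16.8% and 19% and 72.6%, 70.6% and 65.2%. The dominant alpha chain was LAMA4 in each ALDH_High library and LAMA5 in each ALDH_Low library. Means were 77.4% ± 3.32 in ALDH_High and 24.9% ± 3.35 in ALDH_Low for LAMA4, and 19.9% ± 3.62 in ALDH_High and 69.5% ± 3.80 in ALDH_Low for LAMA5 (SD, n = 3). An exact two-sided permutation test on either share gave p = 0.1, the smallest that 3 against 3 libraries allow, and 0.144 after Benjamini-Hochberg adjustment over 26 shares. The sum of alpha chain TPM itself overlapped between groups, at 138 ± 4.05 TPM in ALDH_High and 153 ± 27.3 TPM in ALDH_Low (SD, n = 3, exact permutation p = 0.6). The share of alpha chains in all laminin TPM overlapped as well, at 23.0% ± 2.45 in ALDH_High and 26.4% ± 3.30 in ALDH_Low (SD, n = 3, exact permutation p = 0.3).

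**Figure D2:**
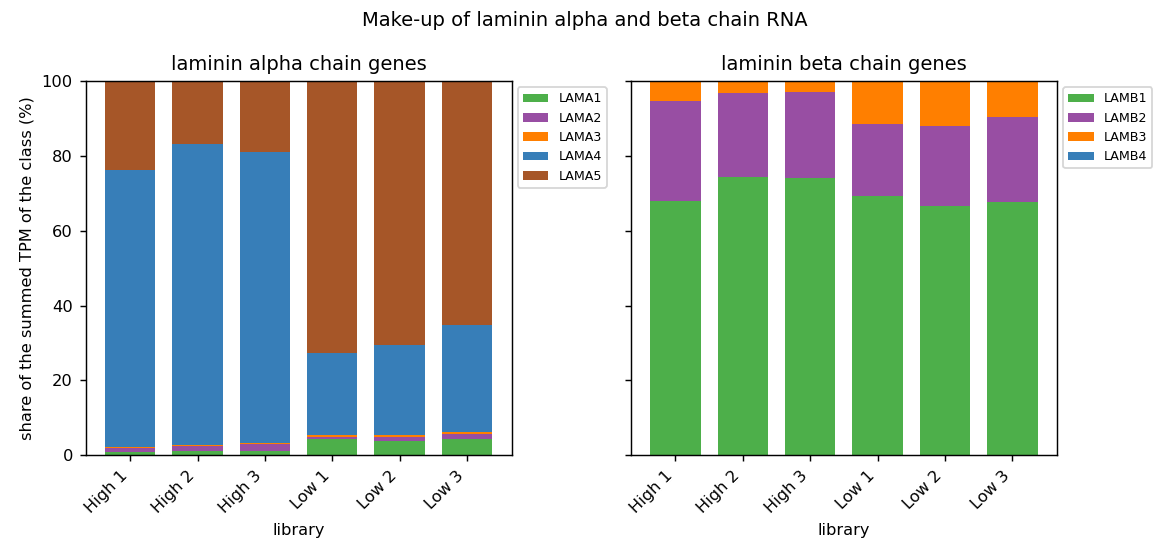
Share of each chain gene in the summed TPM of its class (vertical axis, percent) in each of the 6 libraries, for laminin alpha chains on the left and beta chains on the right. LAMA4 fills 73.9% to 80.5% of the alpha bars in ALDH_High and LAMA5 fills 65.2% to 72.6% in ALDH_Low, while LAMB1 is the largest beta chain in all 6.

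LAMA1 (chr18:6941742-7117797), best known from the embryonic basement membrane, was low in both groups but lower in ALDH_High, at 1.20, 1.72 and 1.51 against 7.84, 5.42 and 5.98 TPM (log2 change -2.18 with SE 0.18, adjusted p 3.11e-05 by edgeR). LAMA3 (chr18:23689453-23956222), the alpha chain of epidermal anchoring laminin, stood at 0.419, 0.360 and 0.371 against 1.15, 0.912 and 0.854 TPM, which is between 35 and 139 counts per library (log2 change -1.40 with SE 0.27, adjusted p 0.00453 by edgeR). Its call was lost in limma on log2(TPM + 1) over all genes with a TPM above 0 (-0.51, limma adjusted p 0.0857), and it was below the mean of 1 TPM asked for in the other fits on TPM. Groups did not overlap for either gene. LAMA2, the muscle and nerve laminin chain, did not pass: it had 1.37, 1.69 and 2.39 TPM in ALDH_High and 0.952, 1.23 and 1.62 TPM in ALDH_Low (log2 change 0.45, edgeR adjusted p 0.310), and its groups overlapped.

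The alpha chain genes lie on chromosomes 6, 18 and 20, of which 18 and 20 were themselves shifted. All tested genes on chromosome 18 had a median log2 fold change of -0.33, where LAMA1 had -2.18 and LAMA3 -1.40. On chromosome 20 the median was 0.25, and LAMA5 had -1.99, against that shift. Chromosome 6, which carries LAMA2 and LAMA4, had a median of -0.01. The part of the chromosome shift in the values of LAMA1 and LAMA3 was not tested.

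Sequence just upstream of the start sites is shown for the 2 alpha chains that exchanged places and for the 2 epidermal laminin chains that fell and have an entry. These are 250 bases before the first start site that RefSeq lists (GRCh38.p14), written 5′ to 3′ on the gene's strand. Capitals mark matches, on either strand, to 5 motifs: the AP-1 site TGANTCA, the SOX cores ACAAAG and ACAATG, the E-boxes CACGTG and CATGTG that MITF can bind, the TFAP2 site GCCNNNGGC and the TEAD core GGAATG. The windows are chr6:112254568-112254817 (minus strand) for LAMA4, chr20:62367313-62367562 (minus) for LAMA5, chr18:23872770-23873019 (plus) for LAMA3 and chr1:209652426-209652675 (minus) for LAMB3.
LAMA4: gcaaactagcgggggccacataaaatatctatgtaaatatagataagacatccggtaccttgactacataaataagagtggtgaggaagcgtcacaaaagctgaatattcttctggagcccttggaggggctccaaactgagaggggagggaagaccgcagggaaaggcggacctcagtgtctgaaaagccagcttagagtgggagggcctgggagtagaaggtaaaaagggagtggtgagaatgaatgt
LAMA5: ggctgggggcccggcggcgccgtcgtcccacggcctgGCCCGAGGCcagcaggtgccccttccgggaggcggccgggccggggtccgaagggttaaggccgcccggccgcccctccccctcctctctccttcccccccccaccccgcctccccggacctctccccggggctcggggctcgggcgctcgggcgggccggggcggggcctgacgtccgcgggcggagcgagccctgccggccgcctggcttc
LAMA3: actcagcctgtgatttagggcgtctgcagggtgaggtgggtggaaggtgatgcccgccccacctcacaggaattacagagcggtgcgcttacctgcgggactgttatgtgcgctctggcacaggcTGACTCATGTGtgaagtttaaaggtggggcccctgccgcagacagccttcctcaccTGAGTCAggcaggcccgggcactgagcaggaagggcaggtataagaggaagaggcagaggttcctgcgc
LAMB3: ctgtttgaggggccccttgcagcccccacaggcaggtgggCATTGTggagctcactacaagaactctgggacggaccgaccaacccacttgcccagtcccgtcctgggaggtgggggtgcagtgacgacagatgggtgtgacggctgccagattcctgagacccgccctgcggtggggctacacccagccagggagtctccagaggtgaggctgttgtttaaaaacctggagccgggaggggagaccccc
LAMA3 held 2 AP-1 matches, TGACTCA and TGAGTCA, which begin 125 and 69 bases before the start, and an E-box that overlaps the first of them. Among 35116 RefSeq windows of this length, 6.57% held an AP-1 match, and of the 30 members with an entry LAMA3 was the 1 that did. LAMA5 held a TFAP2 match, as did 19.8% of all windows, LAMB3 held a SOX match, as did 21.2%, and LAMA4 held none of the 5. A match is a string of letters and not a measured site, and the windows of LAMA3 and LAMA4 lie inside the longer GENCODE spans given above.

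Among beta chains, LAMB3 (chr1:209614870-209652425), the beta chain that assembles with LAMA3, was lower in ALDH_High. Its levels were 12.9, 8.92 and 8.36 TPM in ALDH_High and 31.6, 29.6 and 27.5 TPM in ALDH_Low (log2 change -1.59 with SE 0.19, adjusted p 0.000320 by edgeR), and it fell from 11.0% ± 1.18 to 3.74% ± 1.49 of the beta chain TPM (SD, n = 3, exact permutation p = 0.1). LAMB1, the most abundant beta chain and the partner found in most non-epidermal laminins, stood at 160.4, 216 and 229 TPM in ALDH_High and 192, 165 and 193 TPM in ALDH_Low. Its groups overlapped (log2 change 0.08, edgeR adjusted p 0.736), and without ALDH_Low library 2 the value was -0.0076 (edgeR adjusted p 0.980). LAMB2, the beta chain of kidney filter and nerve-muscle junction laminins, did not pass either, at 66.6 ± 4.61 TPM in ALDH_High and 56.9 ± 6.41 TPM in ALDH_Low (SD, n = 3; log2 change 0.17, edgeR adjusted p 0.386). LAMB4 had between 0 and 24 counts per library. As shares of beta chain TPM, LAMB1 overlapped, at 72.1% ± 3.55 in ALDH_High and 67.9% ± 1.33 in ALDH_Low (SD, n = 3, exact permutation p = 0.2), and LAMB2, at 24.1% ± 2.11 in ALDH_High and 21.1% ± 1.70 in ALDH_Low, did not (SD, n = 3, exact permutation p = 0.1). With CPM in place of TPM this was reversed, with an exact permutation p of 0.1 for the LAMB1 share and 0.2 for the LAMB2 share.

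The gamma chains held the member with the largest fold. LAMC3 (chr9:131009174-131094473), a minor gamma chain, had 153, 293 and 157 counts in ALDH_High and 20, 5 and 7 counts in ALDH_Low, or 1.75, 2.72 and 1.52 against 0.160, 0.0504 and 0.0683 TPM. No ALDH_Low library came near an ALDH_High library, though the level was low throughout (log2 change 4.28 with SE 0.42, adjusted p 8.16e-05 by edgeR; 3.99 to 4.92 when each library was left out in turn).

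LAMC1, the common gamma chain, supplied at least 96.8% of gamma chain TPM in each library. Its levels of 161, 199 and 199.9 TPM in ALDH_High and 146, 159 and 142 TPM in ALDH_Low did not overlap by narrow margins, but it did not pass (log2 change 0.27 with SE 0.10, adjusted p 0.0921 by edgeR). Without ALDH_High library 1 it did (0.33, edgeR adjusted p 0.0206). The sum of gamma chain TPM was 190.3 ± 22.7 in ALDH_High and 153 ± 9.35 in ALDH_Low (SD, n = 3, exact permutation p = 0.1). The log2 fold changes of LAMA4, LAMA5 and LAMB3, for comparison, were 1.46, -1.99 and -1.59.

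**Figure D3:**
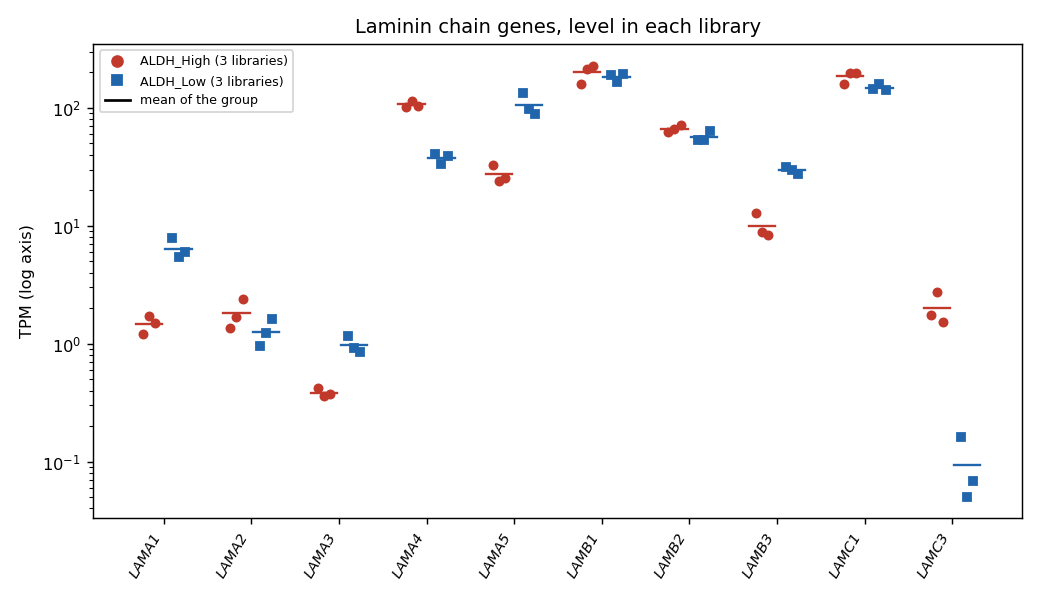
TPM on a log axis for 10 laminin chain genes in each library, circles for ALDH_High and squares for ALDH_Low, with a line at the mean of 3 (LAMB4, at most 24 counts, is among those left out). LAMA4 and LAMC3 sit higher in ALDH_High, LAMA1, LAMA3, LAMA5 and LAMB3 sit higher in ALDH_Low, and LAMB1 overlaps.

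The laminin-binding integrins followed no single direction. ITGB4 (chr17:75721328-75757818), whose product pairs with ITGA6 and ties laminin to keratin filaments in hemidesmosomes, was the member with the largest fall. It was listed at 4.5, 2.06 and 1.87 TPM in ALDH_High and 41.0, 18.6 and 20.1 TPM in ALDH_Low (log2 change -3.27 with SE 0.42, adjusted p 0.000409 by edgeR). Library 1 was the highest of each group, and the log2 fold change was -3.84 to -2.81 when each library was left out in turn. ITGB4 made up 0.723% ± 0.384 in ALDH_High and 8.63% ± 3.31 in ALDH_Low of the integrin beta TPM (SD, n = 3, exact permutation p = 0.1).

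ITGA6 (chr2:172427354-172506459), the alpha partner of ITGB4 that also pairs with ITGB1, was higher, at 89.9, 89.7 and 114 TPM in ALDH_High and 75.8, 64.9 and 54.7 TPM in ALDH_Low (log2 change 0.54 with SE 0.13, adjusted p 0.0162 by edgeR). The groups did not overlap, but the call was lost in 3 of the 6 fits that left out 1 library: 0.47 (edgeR adjusted p 0.0579) without ALDH_High library 3, 0.52 (edgeR adjusted p 0.0638) without ALDH_Low library 2 and 0.45 (edgeR adjusted p 0.0700) without ALDH_Low library 3. ITGA3 (chr17:50055968-50090481), the receptor for LAMA3 and LAMA5 laminins and the most abundant integrin alpha gene, was lower, at 177, 154 and 141 TPM in ALDH_High and 239, 241 and 189 TPM in ALDH_Low (log2 change -0.54 with SE 0.15, adjusted p 0.0253 by edgeR). Leaving out a library ended that call in 4 fits: -0.49 (edgeR adjusted p 0.105) without ALDH_High library 2, -0.42 (edgeR adjusted p 0.102) without ALDH_High library 3, -0.49 (edgeR adjusted p 0.0874) without ALDH_Low library 1 and -0.50 (edgeR adjusted p 0.0919) without ALDH_Low library 2. In all 6 such fits both genes kept their direction.

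Within the alpha subunits, ITGA3 supplied 34.2%, 31.4% and 30.6% of the TPM in ALDH_High and 47.1%, 48.5% and 42.9% in ALDH_Low, and ITGA6 17.3%, 18.3% and 24.8% and 15%, 13.0% and 12.4%. Both shares lay apart between groups (exact permutation p = 0.1 each). ITGA3 remained the larger of the 2 in every library. The shares of ITGAE, at 18.5% ± 4.64 in ALDH_High and 13.4% ± 5.84 in ALDH_Low, and of ITGA5, at 12.5% ± 1.99 in ALDH_High and 15% ± 0.504 in ALDH_Low, overlapped (SD, n = 3, exact permutation p = 0.2 each). ITGA7 (chr12:55684568-55716404), the muscle laminin receptor, was low and higher in ALDH_High, at 3.49, 3.05 and 2.64 against 2.10, 0.999 and 1.29 TPM (log2 change 1.02 with SE 0.29, adjusted p 0.0325 by edgeR). Its call was lost in 4 of those 6 fits: 0.87 (edgeR adjusted p 0.0674) without ALDH_High library 1, 1.06 (edgeR adjusted p 0.0713) without ALDH_High library 2, 0.80 (edgeR adjusted p 0.103) without ALDH_Low library 2 and 0.96 (edgeR adjusted p 0.116) without ALDH_Low library 3.

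Of the 4 collagen-binding alpha subunits, 1 was higher, 1 lower and 2 did not pass. ITGA10 (chr1:145891208-145910111), known from cartilage, had 7.84, 5.59 and 5.11 TPM in ALDH_High and 1.99, 1.36 and 1.62 TPM in ALDH_Low (log2 change 1.86 with SE 0.24, adjusted p 0.000404 by edgeR). ITGA2 (chr5:52989340-53094779), a collagen and laminin receptor of epithelium and platelets, was lower, at 5.61, 7.84 and 7.18 against 14.3, 17 and 8.75 TPM (log2 change -1.0 with SE 0.20, adjusted p 0.00570 by edgeR). ALDH_Low library 3 was the closest to ALDH_High for ITGA2, and limma on log2(TPM + 1) did not call the gene (-0.83, limma adjusted p 0.0608). ITGA1, its neighbour on chromosome 5, overlapped between groups (13.4 ± 1.33 TPM in ALDH_High and 15.1 ± 3.48 TPM in ALDH_Low, SD, n = 3; edgeR adjusted p 0.372). ITGA11 had 58, 38 and 22 counts in ALDH_High and 135, 71 and 86 in ALDH_Low and did not pass (log2 change -1.18 with SE 0.42, adjusted p 0.0758 by edgeR), although it did without ALDH_High library 1 (-1.76, edgeR adjusted p 0.00652).

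Of the beta partners of ITGAV, ITGB3 and ITGB8 were higher, ITGB1 and ITGB5 did not pass, and ITGB6 was not tested. ITGB3 (chr17:47253827-47313743), which with ITGAV binds vitronectin and other RGD ligands, was listed at 65.8, 31.9 and 32.2 TPM in ALDH_High and 5.43, 2.57 and 2.32 TPM in ALDH_Low (log2 change 3.63 with SE 0.40, adjusted p 0.000186 by edgeR). ALDH_High library 1 held the most of its group, and without it the log2 fold change was 3.12 (edgeR adjusted p 0.000153). ITGB3 rose from 1.11% ± 0.455 to 11.1% ± 5.12 of the integrin beta TPM (SD, n = 3, exact permutation p = 0.1). The ALDH_High library with the least ALDH1A3 was thus the one with the most ITGB3. In ALDH_Low it was again library 1 that held the most ITGB3 (5.43 TPM) and the least ALDH1A3 (149.5 TPM). A link between the genes was not tested.

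ITGB8 (chr7:20330702-20415754), the partner with which ITGAV holds and activates latent TGF-beta, was also higher. Its levels of 16.6, 19.9 and 22.3 TPM in ALDH_High and 4.45, 3.23 and 2.65 TPM in ALDH_Low gave the smallest edgeR p of all members (log2 change 2.45 with SE 0.17, adjusted p 1.35e-05 by edgeR). ITGAV itself (chr2:186590010-186680901) rose less, from 12.2, 12.4 and 7.37 TPM in ALDH_Low to 15.9, 20.1 and 22.9 TPM in ALDH_High (log2 change 0.83 with SE 0.18, adjusted p 0.00911 by edgeR). ITGB5, a partner of ITGAV for vitronectin, did not pass, at 156, 142 and 123 TPM in ALDH_High and 118, 108 and 101 TPM in ALDH_Low (log2 change 0.32 with SE 0.14, adjusted p 0.136 by edgeR); without ALDH_High library 3 it did (0.45, edgeR adjusted p 0.0484). ITGB6, the epithelial partner, had at most 8 counts.

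ITGB1, the beta subunit shared by most matrix receptors, was the most abundant beta gene on average and did not pass. It stood at 141, 201 and 202 TPM in ALDH_High and 156, 166 and 138 TPM in ALDH_Low (log2 change 0.18 with SE 0.12, adjusted p 0.353 by edgeR), and the groups overlapped through ALDH_High library 1. Without that library its log2 fold change was 0.31 (edgeR adjusted p 0.0402). ITGA5, the fibronectin receptor subunit, overlapped as well, at 76.4, 53.6 and 54.0 TPM in ALDH_High and 79.1, 74.1 and 64.6 TPM in ALDH_Low (log2 change -0.28, edgeR adjusted p 0.327), and passed without ALDH_High library 1 (-0.52, edgeR adjusted p 0.00607). The share of ITGB1 in beta subunit TPM averaged 46.4% ± 8.69 in ALDH_High and 50.9% ± 3.71 in ALDH_Low (SD, n = 3, exact permutation p = 0.6), and that of ITGB5 36% ± 4.18 in ALDH_High and 36.2% ± 1.15 in ALDH_Low (SD, n = 3, exact permutation p = 0.9), both with overlap. The summed TPM of the beta subunits was 390.0 ± 8.01 in ALDH_High and 302 ± 30.9 in ALDH_Low without overlap (SD, n = 3, exact permutation p = 0.1), while that of the alpha subunits overlapped (489.8 ± 28.9 and 482 ± 35.1, exact permutation p = 0.7).

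**Figure D4:**
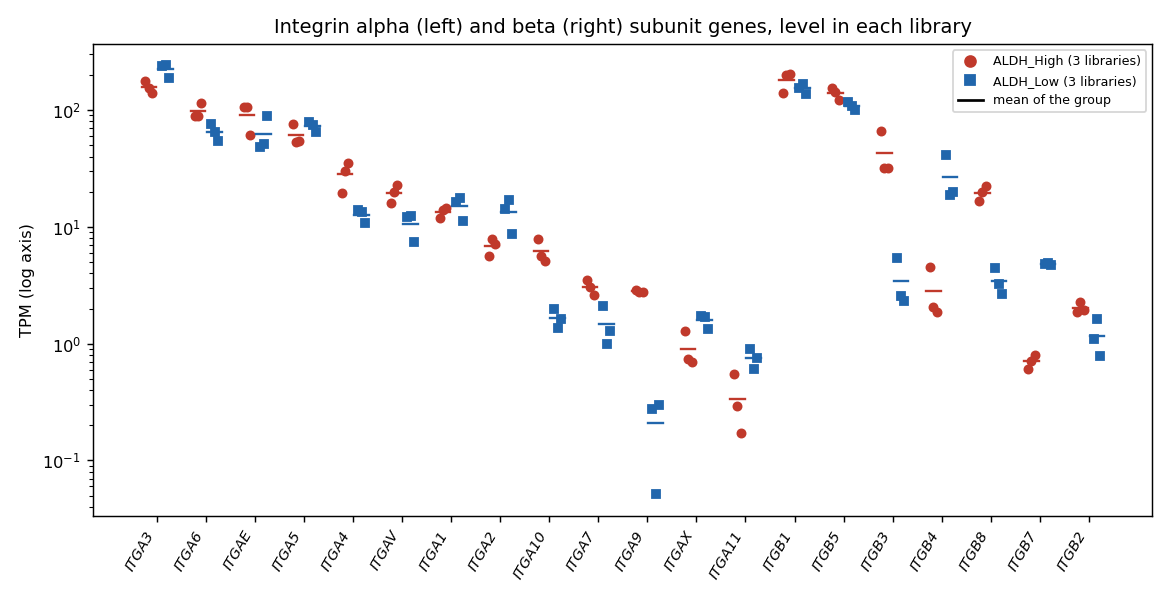
TPM on a log axis for the 20 tested integrin subunit genes in each library, alpha on the left and beta on the right, each ordered by mean level, with circles for ALDH_High, squares for ALDH_Low and lines at the mean of 3. ITGA9, ITGA10, ITGB3 and ITGB8 are higher in all ALDH_High libraries, ITGB4 and ITGB7 are lower in all of them, and ITGB1 overlaps.

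ITGA4 and ITGA9, sister subunits that bind fibronectin variants, tenascin, VCAM1 and osteopontin, were both higher. ITGA9 (chr3:37452115-37823507) had 368, 429 and 414 counts in ALDH_High and 50, 7 and 41 counts in ALDH_Low (log2 change 3.69 with SE 0.44, adjusted p 0.000297 by edgeR; 3.23 to 4.02 with each library left out in turn). Its ALDH_High libraries were close to each other and ALDH_Low library 2 was lowest. ITGA4 (chr2:181457202-181538940), a subunit of neural crest and lymphocyte migration, stood at 19.6, 30.04 and 35.2 TPM in ALDH_High and 14.0, 13.4 and 10.7 TPM in ALDH_Low (log2 change 1.09 with SE 0.17, adjusted p 0.00144 by edgeR). ALDH_High library 1 was the lowest of its group for ITGA4.

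ITGB7 (chr12:53191323-53207282), known as the lymphocyte partner of ITGA4 and ITGAE, went the other way from ITGA4. It was listed at 0.609, 0.703 and 0.803 TPM in ALDH_High and at 4.85, 4.89 and 4.76 TPM in ALDH_Low (log2 change -2.82 with SE 0.21, adjusted p 1.66e-05 by edgeR), and its ALDH_Low libraries lay close together. The other leukocyte subunits did not pass: ITGB2 had an edgeR adjusted p of 0.140 and ITGAX of 0.10, with 23 to 75 and 34 to 102 counts per library. ITGAX passed without ALDH_High library 1 (-1.22, edgeR adjusted p 0.0139). White blood cell markers bear on these genes: PTPRC and CD3E had at most 4 and 2 counts, and MS4A1, HBB, GP9 and PPBP had 0 in every library. The summed CPM of all 10 such markers was 14.5 to 28.1 in ALDH_High and 58.0 to 70.2 in ALDH_Low, of which CD68, a lysosomal gene, supplied most (log2 change -1.86, edgeR adjusted p 0.000273). CD14, a monocyte gene, had 3, 7 and 12 counts in ALDH_High and 24, 31 and 30 in ALDH_Low, while LYZ, lysozyme, was higher in ALDH_High (1.65, edgeR adjusted p 0.0240). The part of these markers in the fall of ITGB7 was not tested.

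ITGAE overlapped between groups, at 106, 107 and 60.7 TPM in ALDH_High and 48.8, 51.5 and 88.8 TPM in ALDH_Low (log2 change 0.48 with SE 0.30, adjusted p 0.302 by edgeR). Its TPM rests on a short implied length: the ratio of count to TPM corresponds to 446 bases, scaled on 545 genes with 1 transcript, beside 3803 bases for the canonical GENCODE transcript. The place of ITGAE among abundant integrin genes therefore depends on the length the authors used, and by counts (457 to 1053) it was below ITGA4 on average. Implied lengths were also shorter than canonical for LAMA3 (4677 against 10651 bases), LAMA5 (5308 against 11426), LAMA4 (4880 against 7228), LAMB2 (2839 against 5692) and ITGB5 (2305 against 4440), so levels and shares set between genes can depend on those lengths too. By counts, LAMA4 was also above LAMA5 in every ALDH_High library (8936, 12413 and 10911 against 3142, 2822 and 2900). It was below LAMA5 in every ALDH_Low library (5101, 3218 and 3729 against 18270, 10312 and 9264).

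The genes that only share the integrin name did not pass. ITGB1BP1, whose product binds the tail of ITGB1, had 133, 144 and 153 TPM in ALDH_High and 164, 174 and 177 TPM in ALDH_Low without overlap (log2 change -0.32 with SE 0.10, adjusted p 0.0573 by edgeR) and passed with upper-quartile scaling (-0.36, edgeR adjusted p 0.0320). ITGB3BP, a centromere protein, had 52.6 ± 8.42 TPM in ALDH_High and 48.7 ± 9.12 TPM in ALDH_Low (SD, n = 3; edgeR adjusted p 0.863). ITGB1BP2 had 2 to 19 counts, and ITGBL1 at most 11.

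The opposite-strand coding genes tested beside LAMA5, ITGB4 and ITGB7 did not pass. ADRM1, which overlaps LAMA5, had a log2 fold change of 0.06 (edgeR adjusted p 0.798), GALK1, beside ITGB4, 0.01 (0.983), and ZNF740, beside ITGB7, 0.28 (0.111). Opposite ITGA7, METTL7B had -0.17 (edgeR adjusted p 0.716) and BLOC1S1 -0.24 (edgeR adjusted p 0.358). A further coding gene that overlaps ITGB3 on the same strand had at most 8 counts. The 7 genes named as antisense to a member or divergent from it had at most 55 counts, and the remaining genes that overlap members are not described here.

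Lists of genes that work with integrins and laminins are given whole, by their counts. The integrin adhesion complex, which couples integrins to actin, was mostly not called: 4 of 33 tested genes were higher and 7 lower (33.3%, against 20.6% of all genes), with a median log2 fold change of -0.08. Of the 30 at the count minimum in every library, 3 were higher and 5 lower, against 19.4% of all such genes. TLN1, FERMT2, PXN, PTK2, ILK, PARVA and ZYX, core linkers and kinases, did not pass, with log2 fold changes from -0.30 to 0.14, while the kindlin FERMT1 was lower (-0.84, adjusted p 0.0176 by edgeR) and the actinin ACTN1 higher (0.45, adjusted p 0.0172 by edgeR). Leaving out a library ended the call of FERMT1 without ALDH_High library 2 (-0.71, edgeR adjusted p 0.0782), without ALDH_High library 3 (-0.68, edgeR adjusted p 0.0645), without ALDH_Low library 1 (-0.74, edgeR adjusted p 0.0710) and without ALDH_Low library 2 (-0.81, edgeR adjusted p 0.0579), and that of ACTN1 without ALDH_High library 2 (0.46, edgeR adjusted p 0.0539), without ALDH_Low library 1 (0.40, edgeR adjusted p 0.0614) and without ALDH_Low library 3 (0.44, edgeR adjusted p 0.0615). VCL, vinculin, was lower, at 35.6 ± 2.78 TPM in ALDH_High and 66.3 ± 13.1 TPM in ALDH_Low (SD, n = 3; log2 change -0.94 with SE 0.14, adjusted p 0.000882 by edgeR), as was TNS1 (-1.50, adjusted p 0.00270 by edgeR). TNS4, a tensin of epithelia, had 5, 19 and 20 counts in ALDH_High and 157, 159 and 88 in ALDH_Low (-3.19), and PARVG, a parvin of blood cells, 64, 50 and 58 and 18, 9 and 9 (2.34). Neither reached the count minimum in every library of the group where it is lower. Their entry into the test thus rested on the group where they are high, which favours a difference. Other higher genes included NEDD9 (1.71), a scaffold known from melanoma metastasis, and KANK1 (0.73), each with an edgeR adjusted p of at most 0.00545. LIMS2 and KANK2 were lower as well. LIMS2 lost its call without library 2 or 3 of ALDH_High or library 1 of ALDH_Low (edgeR adjusted p 0.0546 to 0.0830). KANK2 lost its call without library 2 or 3 of ALDH_High or library 1 or 2 of ALDH_Low (edgeR adjusted p 0.0788 to 0.128). Leaving out ALDH_High library 2, or library 3 of the same group, brought the lower genes to 4 each time.

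Laminin partners and basement membrane genes changed in both directions, with 6 of 19 higher and 7 lower (68.4%, against 20.6% of all genes; median log2 fold change -0.10), and with 6 and 6 of the 18 at the count minimum in every library. COL4A1 and COL4A2, the collagen network of basement membranes, were higher, at 60.1 ± 2.70 TPM in ALDH_High and 27.0 ± 3.57 TPM in ALDH_Low for COL4A1 (1.11, edgeR adjusted p 0.000109) and 156 ± 6.73 TPM in ALDH_High and 73.9 ± 4.94 TPM in ALDH_Low for COL4A2 (1.03, edgeR adjusted p 0.000169; SD, n = 3). Both lie on chromosome 13, whose tested genes had a median of 0.33. The syndecan gene SDC2 rose by 2.01 on the log2 scale (edgeR adjusted p 0.000213). SDC1, another syndecan gene, was lower, at -1.39 to -0.93 with each library left out in turn (edgeR adjusted p 0.000516 to 0.0246). COL17A1, the transmembrane collagen that joins ITGB4 in hemidesmosomes, was lower, with 18, 9 and 10 counts in ALDH_High and 290, 187 and 118 in ALDH_Low (log2 change -3.88). It reached the count minimum in every ALDH_Low library but not in every ALDH_High library. Its entry into the test thus rested on ALDH_Low, which favours a difference. NID2 (-2.55) and NTN4 (-1.55), basement membrane glycoproteins, were lower (adjusted p 0.000263 and 0.00114 by edgeR), while NID1 was higher (0.83, edgeR adjusted p 0.00219). Among the lower genes, UTRN kept its call only when ALDH_Low library 3 was left out (edgeR adjusted p 0.0504 to 0.155 in the other such fits). BCAM lost its call without library 2 or 3 of ALDH_High or library 1 or 2 of ALDH_Low (edgeR adjusted p 0.0821 to 0.0979).

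Beside these hemidesmosome genes, keratinocyte markers were mixed. KRT5 had 2, 6 and 5 counts in ALDH_High and 108, 32 and 36 in ALDH_Low (log2 fold change -3.63). It was tested only through its counts in ALDH_Low, which favours a difference. KRT14 did not pass (0.58, edgeR adjusted p 0.108), and EPCAM and KRT1 had at most 9 and 4 counts. The summed CPM of all 5 markers was 10.8 to 15.2 in ALDH_High and 8.41 to 11.8 in ALDH_Low. Their part in the fall of ITGB4, COL17A1 and LAMB3 was not tested. PLEC and DST, the plakins of the same structure, did not pass (edgeR adjusted p 0.646 and 0.244).

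Integrin ligands other than laminins split as well, with 7 of 23 tested genes higher and 5 lower (52.2%, against 20.6% of all genes; median log2 fold change 0.15), and with the same counts among the 20 at the count minimum in every library. FN1, fibronectin, had 63.3, 74.4 and 68.6 TPM in ALDH_High and 12.9, 10.02 and 12.1 TPM in ALDH_Low (log2 change 2.51 with SE 0.13, adjusted p 3.98e-06 by edgeR). TNC, tenascin C, a ligand of ITGA9 and ITGAV integrins, was higher in all 3 ALDH_High libraries as well, at 414, 384 and 379.7 against 76.0, 76.7 and 83.6 TPM (log2 change 2.27 with SE 0.13, adjusted p 4.69e-06 by edgeR). MFGE8, an RGD protein that binds ITGAV pairs, was higher too (1.19, edgeR adjusted p 0.000443). L1CAM (-1.03), FBN1 (-1.11) and CYR61 (-1.55), also known as integrin ligands, were lower, each with an edgeR adjusted p of at most 0.000635. Of the higher genes, LTBP1 lost its call whichever library was left out (edgeR adjusted p 0.0582 to 0.111). TGFB3 lost its call without library 2 or 3 of ALDH_High or library 2 or 3 of ALDH_Low (edgeR adjusted p 0.0575 to 0.0767). VTN, vitronectin, was low, at 0.365 ± 0.176 TPM in ALDH_High and 0.275 ± 0.190 TPM in ALDH_Low (SD, n = 3).

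Co-receptors that sit beside integrins in the membrane mostly did not pass: 0 of 11 were higher and 1 was lower (9.09%, against 20.6% of all genes) by edgeR, with 1 higher in limma on log2(TPM + 1) and CD151 the 1 higher gene with an unadjusted edgeR p under 0.05. CAV1, caveolin, was lower, at 216 ± 39.8 TPM in ALDH_High and 428 ± 61.0 TPM in ALDH_Low (SD, n = 3; log2 change -1.04 with SE 0.13, adjusted p 0.000403 by edgeR). CD44, CD151, CD9, CD63, CD81 and BSG, all abundant, had edgeR adjusted p from 0.119 to 0.995. Without ALDH_Low library 1 the count of lower genes was 2.

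**Figure D5:**
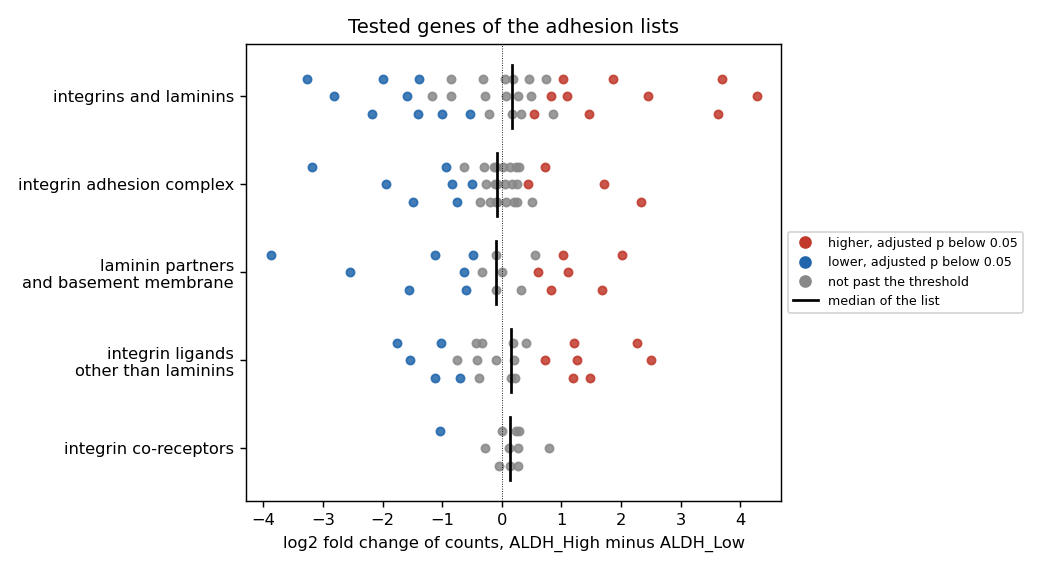
Log2 fold change of counts (ALDH_High minus ALDH_Low) for each tested gene of the integrin and laminin set and of the 4 lists of partner genes, with a line at the median of each list; vertical spread within a row only separates points. Members and basement membrane partners spread to both sides, with 10 higher and 9 lower and 6 higher and 7 lower genes. Of the adhesion complex genes 22 of 33 did not pass, and of the co-receptors 10 of 11. Among all 17047 genes tested, 13534 did not pass.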

How the data were processed

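The deposited table of counts and the deposited table of TPM values for 6 libraries were used. Per the labels, a TruSeq kit that keeps strand and selects mRNA was used. The submitters' processing notes name FastQC 0.11.3, STAR 2.5.1b, HTSeq 0.6.1, DESeq2 and the build GRCh38, with no role or order; the annotation, the strand setting and the gene lengths are not given in the sources used here. The deposited counts are whole numbers and were treated as estimated counts that the authors rounded, because in each library 133 to 177 genes had a count of 0 beside a TPM above 0. The deposited TPM values sum to 1000000 per library. Rows with an Ensembl ID but no symbol (261) held at most 0.0267% of a library's counts and stayed in the fit.

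Genes were kept with filterByExpr (minimum count 10), scaled with TMM, and tested on all 17047 genes with edgeR 4.0.16 (glmQLFit, glmQLFTest; R 4.3.3), ALDH_High against ALDH_Low without a replicate term; adjusted p-values are Benjamini-Hochberg over all genes tested. A standard error is |log2 change| over the root of edgeR's F. Levels are TPM, shares are percent of the summed TPM of a chain class, tested by exact two-sided permutation for the 26 shares of at least 1% in some library, of which those of at least 10% are described. Fits were also run on simulated counts, whose outcome is not described here. Alternatives were other scalings, filters, DESeq2 1.42.0, limma 3.58.1 on log2(TPM + 1) or log2(TPM + 0.1), a replicate block and leaving out each library. Positions come from GENCODE 44 on GRCh38. Named genes are the members past the threshold (1 of them, and 1 marker gene, are not reported here), the 5 integrin and 3 laminin genes with the highest mean TPM, the 3 partner genes per list and direction with the smallest p, and ALDH1A3; others were chosen after their values were seen. The members, lists (34 adhesion complex, 19 basement membrane, 30 ligand and 11 co-receptor genes) and tests were chosen with earlier results of these data known.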

Additional observations from a re-analysis of the deposited data

How the results depend on the processing

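The 19 calls among members held in all fits with another scaling of the libraries, without a count filter, with DESeq2 and with the replicate block; 17 held when at least 10 counts were asked for in every library, which removed LAMC3 and ITGA9 from the test, 16 in both limma fits restricted to mean TPM 1 or above (ITGA2 and ITGA7 were lost, LAMA3 not tested), and 12 in limma on log2(TPM + 1) over all genes (ITGA3, ITGA4, ITGA6 and ITGAV lost besides), where 6 members were higher and the cause was not tested. When each library was left out in turn, 16 to 18 of the 19 held, with 8 to 11 members higher and 8 to 12 lower. All genes called numbered 3513 in the fit described, 2006 in that limma fit, 4466 without a count filter and 2488 to 4221 without 1 library. Upper-quartile scaling gave 1644 higher and 1931 lower genes against 1838 and 1675, with 10 and 10 members, and moved the median of all genes from -0.01 to -0.06. Between groups, deviations of same-numbered libraries correlated at 0.13, 0.061 and 0.10, above the -0.093 to 0.014 of differently numbered libraries. The correlations were weak, and the fit described did not treat same-numbered libraries as pairs, so any pairing was left out of it. With the replicate block there were 10 higher and 10 lower members, 1 higher co-receptor against 0, and 3748 genes in all. In the adhesion complex list, 3 genes were lower in the same limma fit against 7, the cause again not tested (TNS1 among the lost), and 4 to 7 without 1 library. Without a count filter, 8 ligands were lower against 5. Among co-receptors, 1 was higher without a count filter, and 1 in each of the 3 limma fits; lower ones numbered 1 to 2 over the fits without a library. With CPM in place of TPM, the difference in share between ALDH_High and ALDH_Low, in percentage points, was -11.3 against -7.91 for ITGB4 and 13.8 against 10.02 for ITGB3. CPM, unlike TPM, is not scaled to gene length. The log2 change of LAMB1 ran from -0.0076 to 0.19 without 1 library and changed sign without ALDH_Low library 2. At these depths the 7 untested members, at most 13 counts, cannot be compared.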
